A study of Mus musculus with 16 samples.

Results

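Matrix metalloproteinases are secreted or membrane-bound zinc proteases that cut collagens, elastin and the other proteins of the extracellular matrix, along with cytokines and the precursors of other proteases. The genes described here are the 10 named members Mmp2, Mmp3, Mmp8, Mmp9, Mmp12, Mmp13, Mmp14, Mmp15, Mmp19 and Mmp23, chosen by the gene name that the array files give each probe. They are read by 11 probes of the 55681 gene probes on the array, 1 probe per gene except Mmp12, which has 2. All 11 probes were well above background on at least 3 of 16 arrays and so belonged to the 33014 probes tested.

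The arrays measured RNA from the livers of male BALB/c mice, an inbred strain, that were wild type (WT) or lacked Lcn2 (Lcn2-/-), the gene of the secreted iron-scavenger lipocalin 2, and that were 6 to 8 weeks old when treatment began. CCl4, a solvent that hepatocytes turn into a toxic radical, was diluted in corn oil and given into the peritoneal cavity 2 times a week for 4 weeks at 0.5 ml/kg, and livers were collected 48 h after the final dose. Control mice of both genotypes were given corn oil. WT liver was measured on 4 control and 5 CCl4 arrays, and Lcn2-/- liver on 3 control and 4 CCl4 arrays. The deletion is present in the whole animal, so no cell type is singled out by it. It was made on another, mixed strain background and crossed onto BALB/c, and the study describes the WT mice as littermates. The labels give replicate numbers without naming animals, so p-values measure the spread between these arrays.

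In the liver, this family is known from the balance between scar formation and scar removal. The proteases are made as inactive precursors, and many of the secreted members are switched on by plasmin or by other metalloproteinases. They are held in check by the tissue inhibitors of metalloproteinases (TIMPs). The gelatinases Mmp2 and Mmp9 degrade denatured and basement membrane collagen, the collagenases Mmp8 and Mmp13 cleave intact fibrillar collagen, and the stromelysin Mmp3 has a broad range of matrix targets. Mmp12 is the elastase of macrophages. Mmp14 and Mmp15 are anchored in the cell membrane, and Mmp14 activates the Mmp2 precursor at the cell surface. Mmp19 is a secreted member found in many healthy tissues, and Mmp23 is a short membrane-tethered member without the hemopexin domain of most others.

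The quantity measured is the binding of labelled RNA to a 60-base probe. In the main fit, 1 Mmp12 probe carried the largest fitted difference, and the membrane-linked Mmp14 and Mmp23 were measured on every array. Sequences are therefore shown for these 3 probes. They are given 5′ to 3′ in the sense of the transcript, with no base set in capitals, and their positions are those of the files on the mm9 build. The Mmp12 probe starts at base 735 of its transcript (chr9:7352935-7352994, plus strand), the Mmp14 probe at base 1596 (chr14:55058775-55058834, plus strand) and the Mmp23 probe at base 989 (chr4:155025377-155025436, minus strand).
Mmp12: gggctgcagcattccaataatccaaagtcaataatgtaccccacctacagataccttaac
Mmp14: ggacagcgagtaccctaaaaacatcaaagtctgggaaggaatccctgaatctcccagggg
Mmp23: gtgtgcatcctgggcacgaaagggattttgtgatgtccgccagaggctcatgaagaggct

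Between them, the 11 probes hold from 35% to 55% G and C, the lowest share in the second Mmp12 probe, which starts at base 3518 of the same transcript (chr9:7360373-7360432), and the highest in the Mmp23 probe. Of the other probes, Mmp2 lies at chr8:95376840-95376899, Mmp3 at chr9:7455751-7455810, Mmp8 at chr9:7568238-7568297, Mmp9 at chr2:164780620-164780679, Mmp13 at chr9:7282762-7282821, Mmp15 at chr8:97897703-97897762 and Mmp19 at chr10:128236221-128236280, all on the plus strand. Each probe is placed by its base in a transcript, so it lies in exon sequence, and whether that exon sequence is coding was not analysed here.

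The stretch before a gene's start is shown for the members of the chromosome 9 cluster, because 3 of the 4 have an annotated start with a match to the binding motif of AP-1, the Fos and Jun dimer long known from metalloproteinase promoters. RefSeq promoters (assembly GRCm38.p6) were matched for 7 of the 10 members, which gave 9 promoters because Mmp12 and Mmp23 each have 2, while Mmp2, Mmp9 and Mmp19 were not matched. The 250 bases before each start were searched on both strands for TGANTCA (AP-1) and for TATAAA (the TATA box), which do not overlap each other. The last 150 of those bases are printed, 5′ to 3′ along the gene, with the matches in capitals. They are Mmp13 at chr9:7272364-7272513, Mmp12 at chr9:7344247-7344396 and, for its second start, at chr9:7347224-7347373, Mmp3 at chr9:7445672-7445821 and Mmp8 at chr9:7558279-7558428, all on the plus strand.
Mmp13: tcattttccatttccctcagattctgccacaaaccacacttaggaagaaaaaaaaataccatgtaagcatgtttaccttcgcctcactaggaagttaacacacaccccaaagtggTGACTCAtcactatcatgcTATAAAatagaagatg
Mmp12, first start: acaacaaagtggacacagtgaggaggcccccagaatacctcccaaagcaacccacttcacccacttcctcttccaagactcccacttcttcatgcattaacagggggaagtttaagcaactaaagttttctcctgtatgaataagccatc
Mmp12, second start: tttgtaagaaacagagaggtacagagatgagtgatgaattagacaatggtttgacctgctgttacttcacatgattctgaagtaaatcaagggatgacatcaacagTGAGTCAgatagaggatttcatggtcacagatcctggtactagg
Mmp3: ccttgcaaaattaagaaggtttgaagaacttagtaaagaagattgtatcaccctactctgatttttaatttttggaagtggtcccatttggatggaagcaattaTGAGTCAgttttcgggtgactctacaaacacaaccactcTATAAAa
Mmp8: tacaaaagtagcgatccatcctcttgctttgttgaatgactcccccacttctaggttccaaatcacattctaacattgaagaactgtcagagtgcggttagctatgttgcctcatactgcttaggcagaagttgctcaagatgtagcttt

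The AP-1 match began 35 bases before the start in Mmp13, 44 bases before the second start in Mmp12 and 46 bases before the start in Mmp3. These letters were found in 3 of the 9 member promoters and in 6.75% of all 32851 promoters of that length. TATAAA was found in 2 of the 9, those of Mmp13 and Mmp3, against 12.4% of all promoters. AGGAAG, searched in the same way, a core bound by ETS factors, was found in 5 of the 9 against 29.5% of all promoters. A match describes letters in a window and was not tested for binding.

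The labelled genotype was checked on Lcn2 itself. Its probe measured a log2 signal of 15.16 ± 1.66 (SD, n = 4) in WT control and 14.89 ± 0.959 (n = 5) in WT CCl4. In Lcn2-/- liver it measured 11.01 ± 0.532 without CCl4 (n = 3) and 11.56 ± 0.698 with it (n = 4), with no overlap between genotypes. The signal stayed well above background on all Lcn2-/- arrays, and whether the probe lies in the deleted part is not given in the sources used here. The share of spots well above background ran from 54.2% to 56.6% on WT control arrays and from 51.6% to 52.4% on Lcn2-/- control arrays. On CCl4 arrays it ran from 54.6% to 60.9% in WT and from 52.3% to 55.9% in Lcn2-/-. The Lcn2-/- controls thus lay below all WT controls in this share. The tissue matched its label, since all 8 hepatocyte markers, among them Alb and Apoa1, were well above background on every array, and 0 of the 8 passed the test with CCl4 in either genotype. In bulk liver, fewer cells of a type and less RNA per cell cannot be told apart.

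Arrays stood apart in a few ways that bear on the results. WT control replicate 3 had the highest value of its group for 7 of the 11 probes and was the only control array on which Mmp3, Mmp8 and Mmp9 were well above background. It also had the highest macrophage and neutrophil marker means of the WT controls, 13.35 and 10.63 on the log2 scale against at most 12.05 and 9.22 on the other 3. Lcn2-/- control replicate 3 stood apart in the same markers, with means of 12.12 and 11.46 against at most 11.10 and 8.45 on the other Lcn2-/- controls, and it had the highest Mmp8 and Mmp9 values of its group. All control arrays and WT CCl4 replicate 1 shared slide 1, and the other CCl4 arrays were on slide 2, so slide and treatment are separated by that 1 array alone. The rows of the slides followed genotype on all arrays but WT CCl4 replicate 1.

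Most of the family was higher with CCl4 in WT liver. Of the 11 probes, 8 passed the test and all 8 were higher with CCl4, against 15% of all probes tested called in that comparison and 7.34% called higher. Among probes measured on every array, Mmp2 rose most, then Mmp23, and the rises of Mmp13 and Mmp14 were smaller. The called probes of Mmp3, Mmp8, Mmp9 and Mmp12 were well above background on 1 or 2 of the 4 WT control arrays, so their differences are fitted values and not exact folds. Probes were tested if well above background on 3 or more of the 16 arrays. Mmp3, Mmp9 and Mmp12 at base 3518 reached that only through WT CCl4 arrays, so their direction against WT CCl4 is no independent support. Mmp8 and Mmp12 at base 735 reached it only through CCl4 arrays, so their direction with CCl4 is no independent support either. The counts and medians of the CCl4 responses include these probes and are descriptions. Mmp15 and Mmp19 did not pass. The median difference of the 11 probes was 2.13 on the log2 scale, and that of all probes tested was -0.03. In 5 of the 11 the WT CCl4 arrays did not overlap the WT control arrays, against 16.5% of all probes. With slide as a block, which leaves WT CCl4 replicate 1 as the only link between the slides, 3 of the 11 were called, Mmp2, Mmp23 and Mmp12 at base 735. The count was 5 without WT control replicate 1, 2 or 4 or without WT CCl4 replicate 2, 3 or 4.

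In Lcn2-/- liver, 6 of the 11 probes passed, all 6 higher with CCl4, against 11.1% of all probes called and 6.16% called higher. These were Mmp2, Mmp8, 1 Mmp12 probe, Mmp13, Mmp14 and Mmp23, each of which had also passed in WT. Mmp3 and Mmp9, called in WT, did not pass in Lcn2-/-, but the 2 responses were not shown to differ, with an interaction of -1.05 for Mmp3 (95% interval from -3.23 to 1.12) and -0.21 for Mmp9 (from -1.89 to 1.47). The median difference was 1.52, against -0.02 over all probes. In 8 of the 11 probes the groups did not overlap, against 23.8% of all probes. The 8 include Mmp9, which was not well above background on any Lcn2-/- array. They also include Mmp8 and Mmp12 at base 735, with 0 of 3 controls measured and tested only because of CCl4 arrays. The count and the median are therefore descriptions. With slide as a block, 2 of the 11 were called, Mmp2 and Mmp23. The plot of signal by array shows every value behind these counts.

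**Figure D1:**
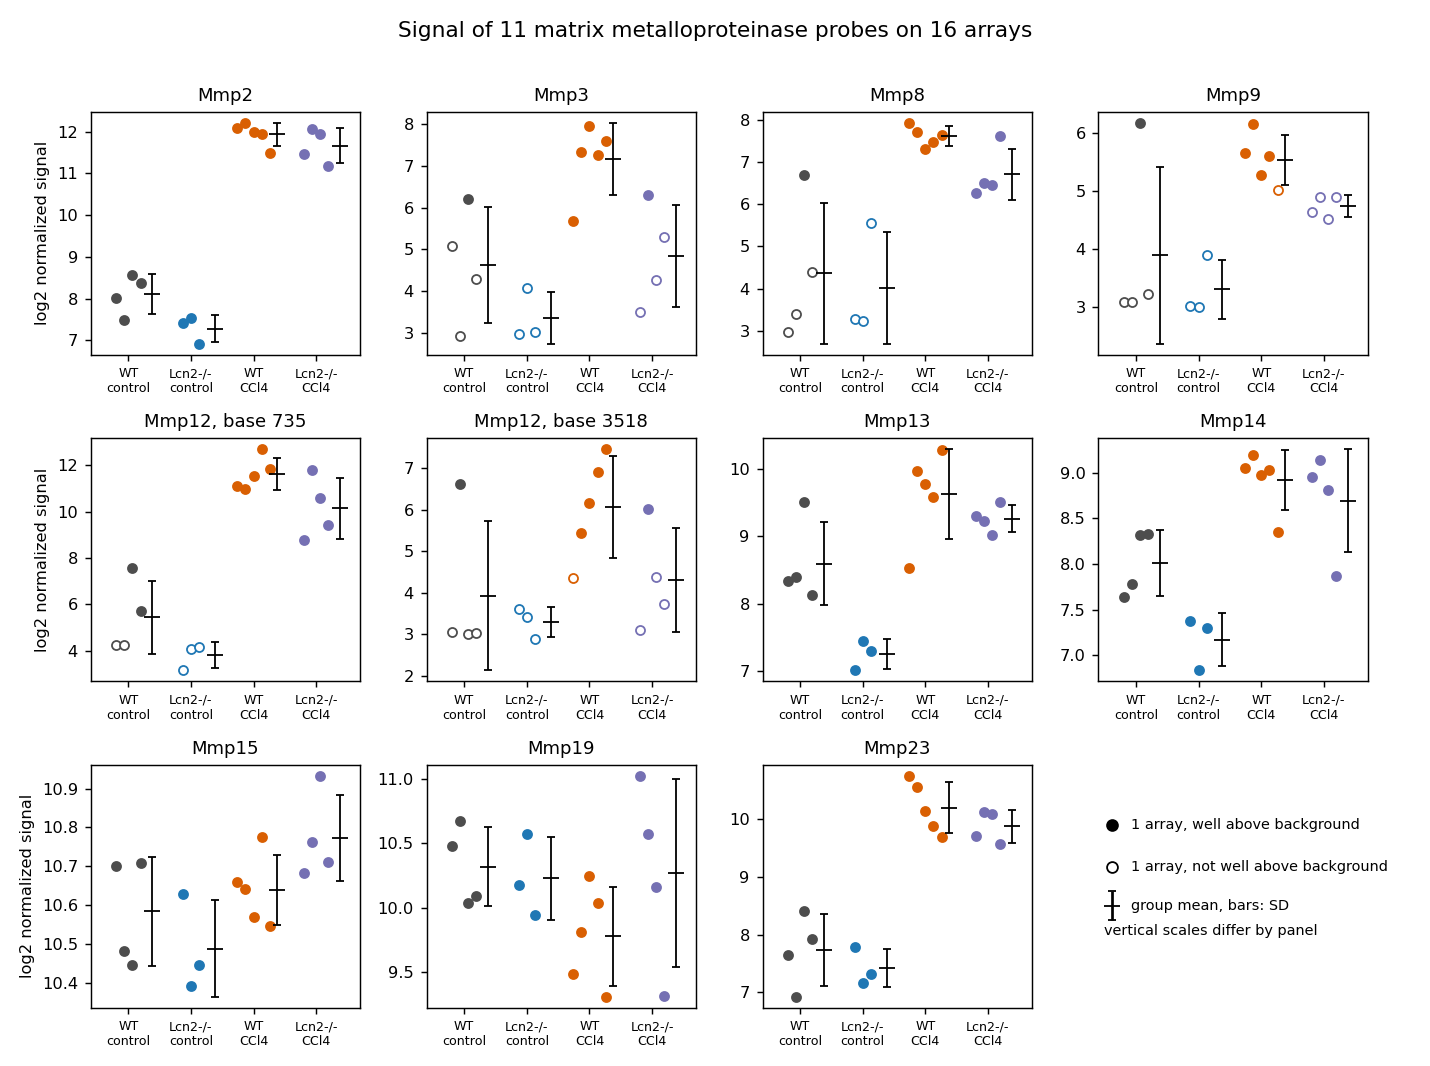
Log2 quantile-normalized signal of the 11 probes on the 16 arrays, 1 panel per probe with its own vertical scale, by group on the horizontal axis. Filled points are arrays on which the probe was well above background and open points are arrays on which it was not, and the mark to the right of each group is the mean with the SD. The Mmp2 controls lie between 6.92 and 8.57 and all Mmp2 CCl4 arrays at 11.17 or higher, whereas the Mmp15 arrays of all groups lie between 10.39 and 10.93.

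Among the gelatinases, Mmp2 gave the clearest separation. Its log2 signal was 8.01, 7.49, 8.57 and 8.38 on the 4 WT control arrays and 12.08, 12.20, 11.99, 11.95 and 11.48 on the 5 WT CCl4 arrays. The Lcn2-/- control arrays measured 7.41, 7.53 and 6.92, and the Lcn2-/- CCl4 arrays 11.48, 12.06, 11.95 and 11.17. Every CCl4 array was thus far above every control array, and the CCl4 arrays of the 2 genotypes overlapped. Mmp2 was 14.2-fold higher with CCl4 in WT (log2 difference 3.82 ± 0.24 SE, limma adjusted p = 7.56e-07) and 20.8-fold higher in Lcn2-/- (4.38 ± 0.28, adjusted p = 6.58e-07). Both calls held without any 1 array and in every other setting run.

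Mmp9, the gelatinase of neutrophils and macrophages, was close to the limit of measurement. Its single probe is printed in 10 spots, and the SD between those spots on an array ranged from 0.06 to 0.86. WT control arrays measured 3.09, 3.08, 6.18 and 3.23, with only the third well above background. WT CCl4 arrays measured 5.65, 6.15, 5.27, 5.60 and 5.01, with the fifth not well above background. The Lcn2-/- control values of 3.02, 3.00 and 3.90 and the Lcn2-/- CCl4 values of 4.63, 4.89, 4.53 and 4.90 were all not well above background. WT control replicate 3 therefore lay above all 5 WT CCl4 arrays, and the WT groups overlapped through it alone.

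Mmp9 was tested only because of its WT CCl4 arrays, so its direction in WT is no independent support. The WT difference for Mmp9 was 1.64 ± 0.52 and its limma adjusted p was 0.0465. It was 0.40 with normexp background correction (adjusted p = 0.112) and 0.87 in the authors' table (adjusted p = 0.0652), and passed in neither. The call was lost without 14 of the 16 arrays, taken 1 at a time, with adjusted p up to 0.158. The 2 exceptions were WT control replicate 3 and Lcn2-/- control replicate 3, and without the former the difference was 2.40 (adjusted p = 3.18e-05). In Lcn2-/- liver no fold is given, since neither group was well above background, and the fitted difference did not pass (adjusted p = 0.140). Without WT control replicate 3 it passed (adjusted p = 0.00296), with the same fitted difference, and without both controls numbered 3 it was 1.73 (adjusted p = 0.000761).

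The collagenase Mmp8, stored in neutrophil granules, was not well above background on most control arrays. WT control arrays measured 2.97, 3.40, 6.70 and 4.38, again with only the third well above background, and Lcn2-/- control arrays measured 3.29, 3.22 and 5.55, with 0 of 3 above it. With CCl4, all arrays were above it, at 7.93, 7.70, 7.30, 7.46 and 7.64 in WT and at 6.26, 6.49, 6.45 and 7.61 in Lcn2-/-. No control array reached the CCl4 arrays of its own genotype. Mmp8 was tested only because of its CCl4 arrays, so its direction with CCl4 is no independent support. The fitted WT difference was 3.24 ± 0.65 (limma adjusted p = 0.00372), against controls of which 1 of 4 was measured, and that in Lcn2-/- was 2.68 ± 0.74. With normexp background correction these were 1.34 and 0.93, and both passed. In Lcn2-/- liver Mmp8 was at least 2.27-fold higher with CCl4, a bound set by the lowest signal that counts as well above background on the control arrays and valid for the processed signals only, not for normexp values, with a limma adjusted p of 0.0312. That call was lost without Lcn2-/- control replicate 1 or 2 or Lcn2-/- CCl4 replicate 3 or 4, with adjusted p up to 0.140.

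Mmp13, the main interstitial collagenase of rodents, was measured on all 16 arrays. WT control arrays measured 8.35, 8.40, 9.51 and 8.13 and WT CCl4 arrays 8.53, 9.97, 9.78, 9.59 and 10.28. The Lcn2-/- control arrays, at 7.01, 7.45 and 7.30, were all below the WT controls, and the Lcn2-/- CCl4 arrays measured 9.30, 9.23, 9.02 and 9.50. The WT groups overlapped through WT control replicate 3 and WT CCl4 replicate 1, while the Lcn2-/- groups lay well apart.

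The Mmp13 difference was 1.03 ± 0.32 in WT (2.05-fold, limma adjusted p = 0.0444) and 2.01 ± 0.37 in Lcn2-/- (4.03-fold, adjusted p = 0.00293). The WT call was lost without 13 of the 16 arrays, 1 at a time, with adjusted p up to 0.131. The 3 exceptions were WT control replicate 3, WT CCl4 replicate 1 and Lcn2-/- CCl4 replicate 4. With slide as a block the WT difference rested on WT CCl4 replicate 1 and was -0.0628 (adjusted p = 0.949), and the Lcn2-/- difference was 0.64 (adjusted p = 0.5684). Without WT CCl4 replicate 1 the WT difference was 1.31 (adjusted p = 0.00494).

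Mmp3, a stromelysin that also activates other metalloproteinase precursors, was well above background on 7 arrays. These were WT control replicate 3 at 6.21, all WT CCl4 arrays, at 5.69, 7.34, 7.96, 7.26 and 7.60, and Lcn2-/- CCl4 replicate 2 at 6.30. The remaining values were 5.07, 2.92 and 4.30 in WT control, 2.97, 4.07 and 3.03 in Lcn2-/- control and 3.50, 4.27 and 5.29 in Lcn2-/- CCl4. Mmp3 was thus detected on 5 of 5 WT CCl4 arrays and on 1 of 4 Lcn2-/- CCl4 arrays.

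In WT liver Mmp3 had a fitted difference of 2.54 ± 0.67 (limma adjusted p = 0.0197) against controls of which 1 of 4 was measured. Since it was tested only because of its WT CCl4 arrays, its direction and p are no independent support. The fitted difference was 1.09 with normexp background correction (adjusted p = 0.00855) and 1.66 in the authors' table (adjusted p = 0.0115). The call was lost without WT control replicate 2 or WT control replicate 4, with adjusted p up to 0.0753. With slide as a block the WT difference was 1.07 (adjusted p = 0.5999) and the Lcn2-/- difference -0.36 (adjusted p = 0.922). In Lcn2-/- liver the fitted difference did not pass (adjusted p = 0.237), and no fold is given because the Lcn2-/- controls were not well above background and the mean of the CCl4 arrays did not exceed their limit. The 2 responses differed by -1.05 ± 1.01, Lcn2-/- minus WT, with a 95% interval from -3.23 to 1.12 (limma adjusted p = 1.00), so the interaction did not separate them.

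In the main fit, Mmp12 carried the largest fitted difference of the family, on 1 of its 2 probes. At the probe shown above, WT control arrays measured 4.25, 4.25, 7.58 and 5.70, of which the first and second were not well above background, and WT CCl4 arrays measured 11.10, 10.96, 11.55, 12.70 and 11.84. The Lcn2-/- control arrays, at 3.15, 4.08 and 4.15, were all not well above background, and the Lcn2-/- CCl4 arrays measured 8.78, 11.79, 10.57 and 9.44. Every CCl4 array exceeded every control array of either genotype. This probe was tested only because of its CCl4 arrays, so its direction with CCl4 is no independent support. The fitted difference was 6.19 ± 0.70 in WT (limma adjusted p = 5.06e-05), where 2 of 4 controls were measured. In Lcn2-/- 0 of 3 controls were measured, so the fitted 6.35 ± 0.80 (adjusted p = 0.000197) is no measure of size, and Mmp12 was at least 24.6-fold higher with CCl4 on the scale of the processed signals. With normexp background correction, to which that bound does not apply, the fitted Lcn2-/- difference was smaller, at 3.71, and both calls held. There Mmp2 had the larger Lcn2-/- difference, which was 3.86 or more in every setting run. With slide as a block the Lcn2-/- call was lost (5.69, adjusted p = 0.0714).

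The Mmp12 probe at base 3518 behaved differently. It was well above background on 6 arrays, WT control replicate 2 at 6.63, the WT CCl4 arrays at 5.43, 6.17, 6.90 and 7.45, and Lcn2-/- CCl4 replicate 2 at 6.003. WT CCl4 replicate 1, at 4.35, the other Lcn2-/- CCl4 arrays, at 3.10, 4.38 and 3.74, and all other control arrays, between 2.90 and 3.61, were not well above background. On WT control replicate 2, where this probe was bright, the probe at base 735 measured 4.25 and was not above background. The difference was 2.13 ± 0.81 in WT (limma adjusted p = 0.0944) and did not pass in Lcn2-/- (adjusted p = 0.530). Without WT control replicate 2 the WT difference passed, at 3.03 (adjusted p = 0.0115). The probe was tested only because of its WT CCl4 arrays, so this is no independent support.

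**Figure D2:**
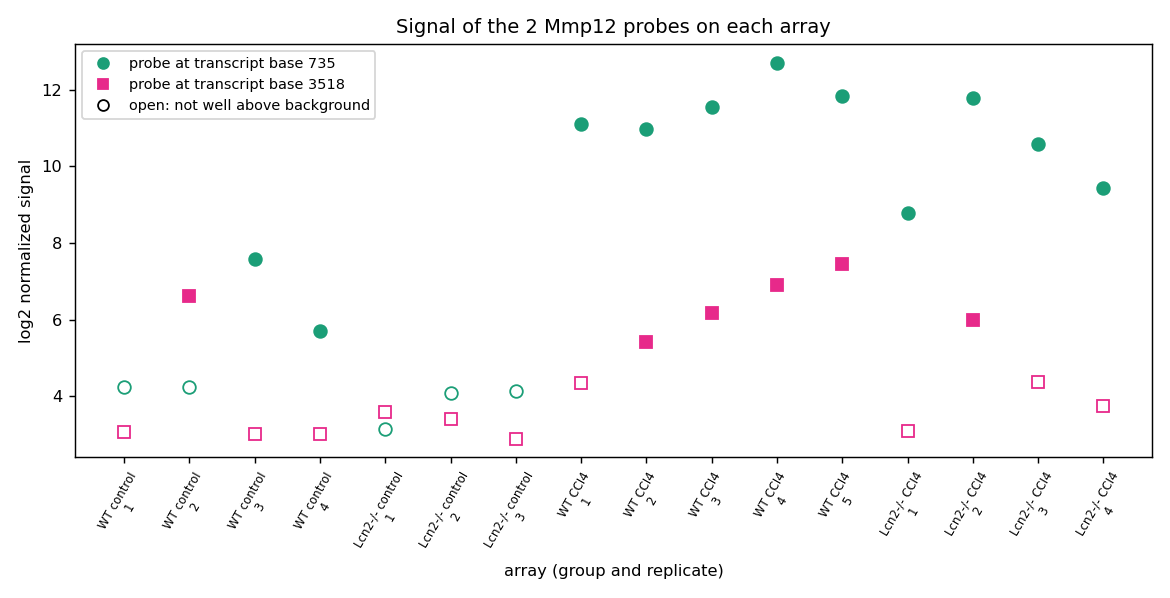
Log2 quantile-normalized signal of the 2 Mmp12 probes on each of the 16 arrays, which are named by group and replicate on the horizontal axis. Circles are the probe at transcript base 735 and squares the probe at base 3518, open where the probe was not well above background. The base 735 probe is at 8.78 or higher on every CCl4 array, while the base 3518 probe is open on 4 of the 9 CCl4 arrays and at 6.63 on WT control replicate 2.

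The membrane-type members went separate ways. Mmp14 was measured on all arrays, at 7.64, 7.77, 8.32 and 8.32 in WT control, at 7.37, 6.84 and 7.30 in Lcn2-/- control, at 9.05, 9.19, 8.98, 9.03 and 8.35 in WT CCl4 and at 8.95, 9.14, 8.81 and 7.87 in Lcn2-/- CCl4. In each genotype the CCl4 arrays lay above the controls, narrowly so in WT, where WT CCl4 replicate 5 was just above the highest control. Mmp14 was 1.87-fold higher with CCl4 in WT (0.91 ± 0.26, limma adjusted p = 0.0291) and 2.87-fold higher in Lcn2-/- (1.52 ± 0.29, adjusted p = 0.00401). The WT call was lost without WT control replicate 1 or 2 or WT CCl4 replicate 1, 2, 3 or 4, with adjusted p up to 0.107. Among other settings, it was also lost with scaling to the 75th percentile and with slide or the row of the slide as a block. In the settings other than single arrays left out, the difference ran from 0.72 to 1.11.

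Mmp15, the second membrane-type member, was the steadiest probe of the family. Its values spanned 10.39 to 10.71 over the 7 control arrays and 10.55 to 10.93 over the 9 CCl4 arrays. The difference with CCl4 was 0.05 in WT, with a 95% interval from -0.16 to 0.27 (limma adjusted p = 0.761), and 0.28 in Lcn2-/-, from 0.04 to 0.52 (adjusted p = 0.126). The Lcn2-/- CCl4 arrays, at 10.68, 10.76, 10.93 and 10.71, did not overlap the Lcn2-/- controls at 10.63, 10.39 and 10.45.

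Mmp23, the short membrane-tethered member, rose in both genotypes by nearly the same amount. WT control arrays measured 7.65, 6.92, 8.41 and 7.93 and WT CCl4 arrays 10.76, 10.56, 10.14, 9.88 and 9.69. Lcn2-/- control arrays measured 7.79, 7.15 and 7.31 and Lcn2-/- CCl4 arrays 9.72, 10.13, 10.10 and 9.57. No CCl4 array reached down to a control array. The difference was 2.48 ± 0.29 in WT (5.57-fold, limma adjusted p = 5.82e-05) and 2.46 ± 0.33 in Lcn2-/- (5.51-fold, adjusted p = 0.000292). The 2 responses differed by -0.02, with a 95% interval from -0.94 to 0.91. As with Mmp2, both calls held without any 1 array and in every other setting run.

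Mmp19 was bright on all 16 arrays and did not pass in either genotype. WT control arrays measured 10.48, 10.67, 10.04 and 10.09, and WT CCl4 arrays 9.49, 9.81, 10.25, 10.04 and 9.31. The Lcn2-/- control values were 10.17, 10.57 and 9.94, and the Lcn2-/- CCl4 values, 11.02, 10.57, 10.16 and 9.32, were the most spread of the 4 groups. The difference was -0.54 in WT, with a 95% interval from -1.18 to 0.10 (limma adjusted p = 0.2504), and 0.04 in Lcn2-/-, from -0.69 to 0.77 (adjusted p = 0.957).

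**Figure D3:**
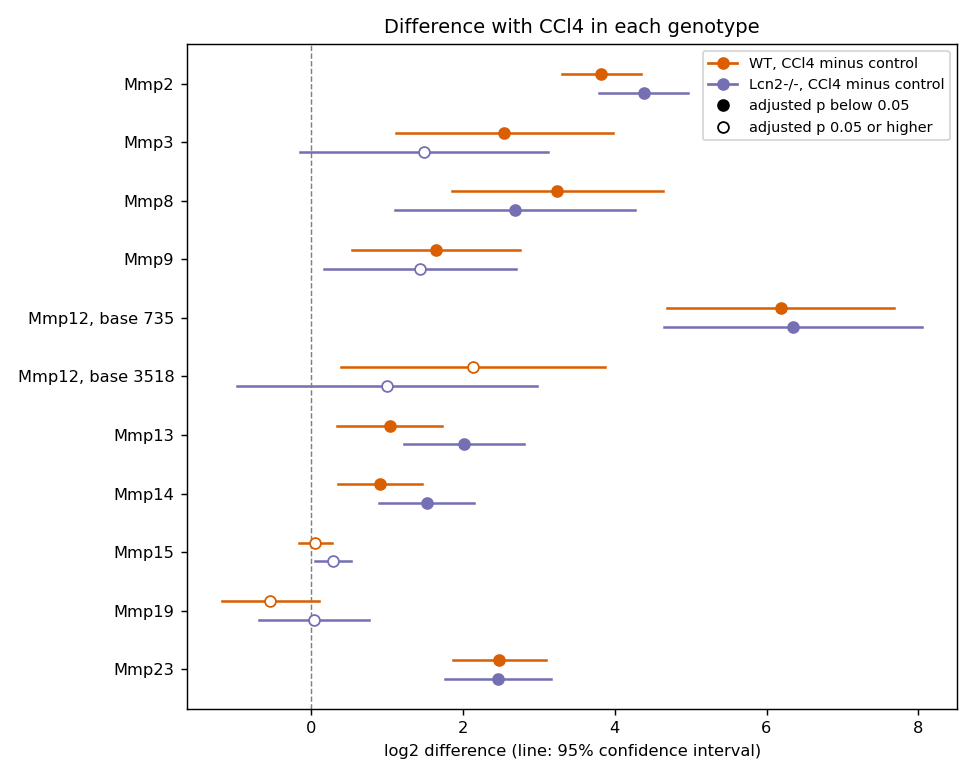
Log2 difference between CCl4 and control for each probe in WT and in Lcn2-/- liver, with the 95% confidence interval of the limma fit as a line and filled points where the adjusted p was below 0.05. Values against a control group that was not well above background are fitted differences, not folds. The intervals of the 2 genotypes overlap for each of the 11 probes, and Mmp12 at base 735, at 6.19 and 6.35, stands furthest from 0.

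Mmp13, both Mmp12 probes, Mmp3 and Mmp8 lie in a metalloproteinase cluster on chromosome 9. There, 9 genes have a probe on the array, and their 11 probes span 415 kb. Of the neighbours outside the 10 members, Mmp7 and 1 of the 2 Mmp27 probes were tested. Mmp7, which differed by 0.98 in WT and 0.98 in Lcn2-/- (limma adjusted p = 0.360 and 0.447), did not pass, and neither did that Mmp27 probe, at 0.65 and 0.75 (adjusted p = 0.219 and 0.238). Mmp1a and Mmp20 were well above background on 0 arrays and Mmp10 on 2, and they were not tested. In WT, the 4 called probes of the cluster were those of Mmp13, Mmp12 at base 735, Mmp3 and Mmp8.

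**Figure D4:**
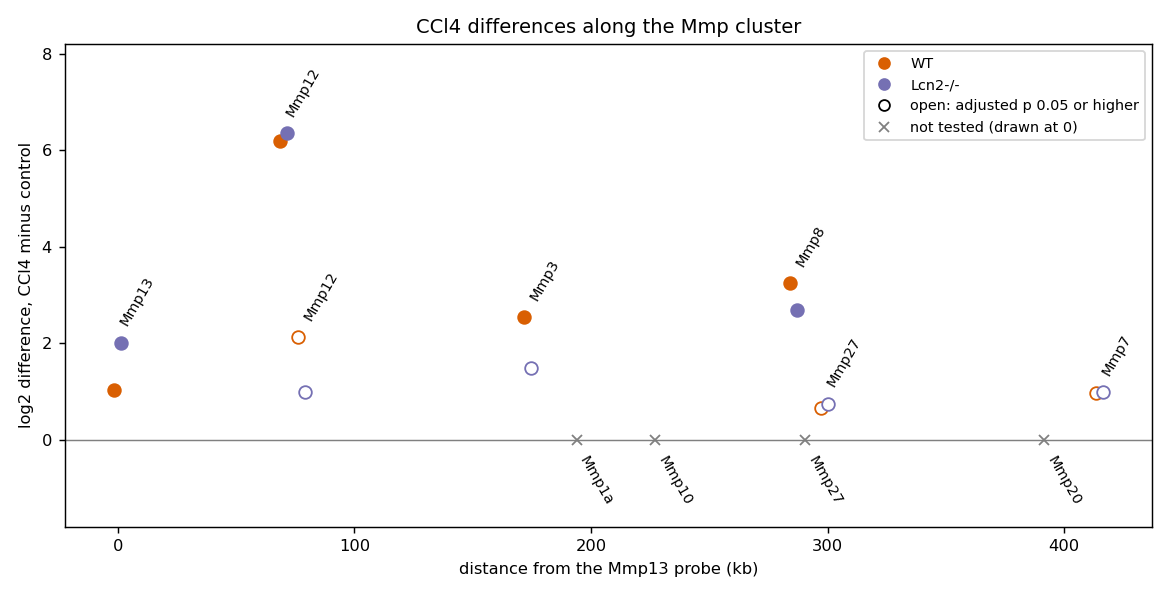
Log2 difference between CCl4 and control for the probes of the metalloproteinase cluster, by distance in kb from the Mmp13 probe. Filled points passed the test at an adjusted p below 0.05, open points did not, and crosses drawn at 0 mark probes that were too dim to be tested. The WT points of Mmp13, Mmp12 at base 735, Mmp3 and Mmp8 are filled, and those of Mmp12 at base 3518, Mmp27 and Mmp7 are open.

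The comparison of genotypes under CCl4 asks whether metalloproteinase transcripts of the injured liver differ without Lcn2. None of the 11 probes passed, with 0 called by limma against 0.524% of all probes, and 2 of the 11 had an unadjusted p under 0.05, against 12.7% of all probes. Of the 11 probes, 9 were lower in Lcn2-/-, against 49.8% of all probes tested, and Mmp15 and Mmp19 were higher. The 9 include Mmp3, Mmp9 and Mmp12 at base 3518, which were tested only because of their WT CCl4 arrays, so the count is a description. Mmp3 and Mmp12 at base 3518 are also the 2 with an unadjusted p under 0.05, so that count is a description too. Mmp14 turned higher without Lcn2-/- CCl4 replicate 4 and Mmp13 with the row of the slide as a block. The median difference was -0.37. Mmp3, well above background on 1 of the 4 Lcn2-/- CCl4 arrays, had a fitted difference of -2.33 ± 0.67 (limma adjusted p = 0.171). Its 95% interval ran from -3.76 to -0.89, and its two-sided exact permutation p was 0.0238. The permutation p was 0.0159 for Mmp9, 0.0317 for Mmp8 and 0.0714 or more for the other probes. Because Mmp3 and Mmp9 were tested only through their WT CCl4 arrays, their intervals and permutation p give no independent support.

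For Mmp3, 4 of the 5 WT CCl4 arrays, all of them on slide 2, lay above all 4 Lcn2-/- CCl4 arrays, and WT CCl4 replicate 1, on slide 1, lay below the highest of these. Within slide 2 the difference was -2.70 (limma adjusted p = 0.111). With the row of the slide as a block it was -0.85 (adjusted p = 0.866).

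The Mmp12 probe at base 3518 was the other with an unadjusted p under 0.05, at -1.76 ± 0.81 (limma adjusted p = 0.389), and its partner at base 735 differed by -1.49 ± 0.70 (adjusted p = 0.397). Mmp9 was the 1 probe without overlap between the genotypes under CCl4, against 5.32% of all probes, but 0 of 4 Lcn2-/- CCl4 arrays were well above background and the fitted difference of -0.80 had a 95% interval from -1.91 to 0.31 (adjusted p = 0.549). Mmp8 differed by -0.90, with a 95% interval from -2.29 to 0.49. For Mmp2 the difference was -0.27, with an interval from -0.79 to 0.25, for Mmp13 -0.37, from -1.06 to 0.32, and for Mmp14 -0.23, from -0.78 to 0.32. Mmp23, at -0.33, had an interval from -0.94 to 0.28.

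In control livers the same comparison showed every probe lower in Lcn2-/-, 11 of 11 against 52.5% of all probes, and again 0 passed by limma, against 0.485% of all probes called. The Lcn2-/- control arrays also had a smaller share of spots well above background than the WT controls, whose part here was not tested. The direction was not stable for all of the 11 probes. Without WT control replicate 3, Mmp8 and Mmp9 were higher in Lcn2-/-, by 0.43 and 0.17. Mmp8 was also higher without Lcn2-/- control replicate 1 or 2, Mmp12 at base 3518 without WT control replicate 2, and Mmp19 without WT control replicate 2 or Lcn2-/- control replicate 3. For 5 of the 11 probes, those of Mmp3, Mmp8, Mmp9 and Mmp12, 0 of 3 Lcn2-/- control arrays were well above background. An unadjusted p under 0.05 was reached by 3 of the 11, against 8.19% of all probes. Mmp13 differed by -1.34 ± 0.37 (adjusted p = 0.174), Mmp14 by -0.85 ± 0.29 (adjusted p = 0.354) and Mmp2 by -0.83 ± 0.28 (adjusted p = 0.320). Mmp13, Mmp14 and Mmp12 at base 735 had no overlap between the genotypes, against 9.47% of all probes. With the row of the slide as a block the Mmp13 difference was 0.0282 (adjusted p = 0.996), and Mmp3, Mmp12 at base 3518 and Mmp19 were higher in Lcn2-/-, by 0.58, 1.51 and 0.27, resting on WT CCl4 replicate 1, the 1 array that breaks the match of row and genotype. These comparisons share arrays with the CCl4 responses, so a lower Lcn2-/- control also raises the fitted Lcn2-/- response.

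**Figure D5:**
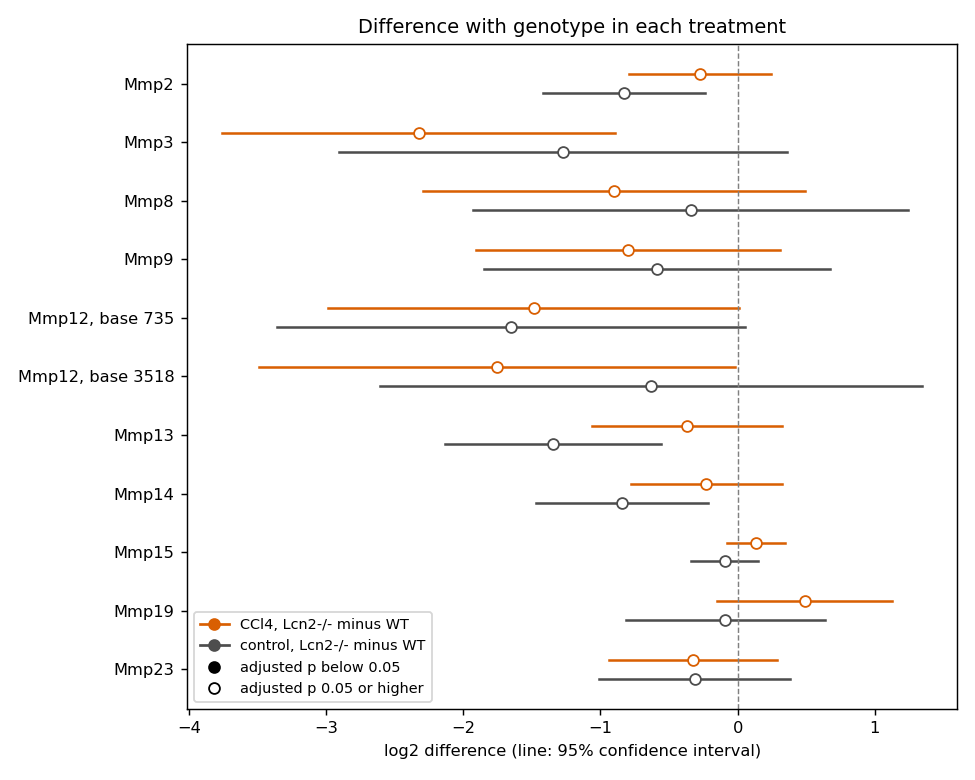
Log2 difference between Lcn2-/- and WT for each probe under CCl4 and in controls, with the 95% confidence interval of the limma fit as a line. All points are open because the adjusted p was 0.05 or higher for each of the 11 probes in both comparisons. In controls all 11 points lie left of 0, although those of Mmp8 and Mmp9 turn to 0.43 and 0.17 without WT control replicate 3, and under CCl4 those of Mmp15 and Mmp19 lie right of it.

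The interaction subtracts the response of WT liver from that of Lcn2-/- liver. It was called for 0 of the 11 probes by limma, against 0.0333% of all probes, and 0 had an unadjusted p under 0.05, against 3.29%. Its largest standardized value was that of Mmp13, at 0.98 ± 0.49 (unadjusted p = 0.0655), and the direction was positive for 6 probes and negative for 5. The interval was widest for Mmp12 at base 3518, from -3.76 to 1.50, wide also for its partner at base 735, from -2.11 to 2.43, and narrowest for Mmp15, from -0.09 to 0.55.

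Among the family's other genes, 5 of 13 had a tested probe. Mmp11, a stromelysin-type member made by stromal cells, rose in WT by 1.69 ± 0.19 (limma adjusted p = 4.62e-05) and in Lcn2-/- by 1.84 ± 0.21 (adjusted p = 0.00011). It was the 1 gene of the 5 called in either response, against 7.34% of all probes called higher in WT and 6.16% in Lcn2-/-. Mmp24, a membrane-type member best known from neurons, was called lower in Lcn2-/- under CCl4 (adjusted p = 0.0356) and in controls (adjusted p = 0.0383). Its probe was well above background on all 9 WT arrays and on 1 of the 7 Lcn2-/- arrays. Mmp24 was thus tested only because of its WT arrays and was named after its values were seen, so these calls are no independent support.

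The inhibitors were described next because they hold these proteases in check. Of 7 inhibitor genes 5 were tested, and Timp2 and Timp3 were called higher in WT, against 7.34% of all probes. In Lcn2-/- 0 of the 5 passed by limma, against 6.16% of all probes called higher. The interactions of Timp2 and Timp3, both -0.27, did not pass. Timp2 rose by 1.47 ± 0.34 in WT (adjusted p = 0.00884) and differed by 1.20 ± 0.38 in Lcn2-/- (adjusted p = 0.0599). Timp1, the inhibitor most often followed in fibrosis, measured 9.23 ± 1.55 in WT control and 10.80 ± 0.397 in WT CCl4 and did not pass (adjusted p = 0.0858). In Lcn2-/- it measured 8.49 ± 0.224 and 10.00 ± 0.920 (adjusted p = 0.164). The Timp1 difference between genotypes under CCl4 was -0.79 (adjusted p = 0.6002).

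Of 13 genes of precursor activation, 12 were tested and 3 were called in each genotype, all higher, against 7.34% of all probes called higher in WT and 6.16% in Lcn2-/-. Plat, which encodes tissue plasminogen activator, rose by 3.56 ± 0.43 in WT (limma adjusted p = 8.71e-05). Plaur, the urokinase receptor, rose by 1.64 ± 0.44 (adjusted p = 0.0212). Mep1a, the alpha subunit of the protease meprin, was not well above background on any control array. It measured 7.11 ± 0.839 in WT CCl4 and 6.18 ± 0.854 in Lcn2-/- CCl4. Mep1a was thus tested only because of its CCl4 arrays, so its calls are no independent support.

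Genes of the matrix proteins that these proteases cut were mostly higher with CCl4. Of 14 tested substrate genes, 10 were called higher and 1, Vcan, lower in WT, and 8 were called higher in Lcn2-/-, against the same shares of all probes. Col1a1, a chain of the main scar collagen, rose in WT by 3.49 ± 0.45 (limma adjusted p = 0.000147) and in Lcn2-/- by 4.21 ± 0.51 (adjusted p = 0.000161). Col1a2 rose by 2.89 and 2.98, Col3a1 by 2.64 and 3.20 and the elastin gene Eln by 1.63 and 2.41 in WT and Lcn2-/-, respectively. Fn1, the fibronectin gene, did not pass in either genotype, at -0.09 and -0.11.

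Genes of collagen uptake and intracellular breakdown were also measured. Of 7 tested, Ctsk, Mrc2 and Mfge8 were called higher in both genotypes and the other 4 were not called. The shares of all probes called higher were 7.34% in WT and 6.16% in Lcn2-/-. Ctsk, a collagen-degrading lysosomal protease, rose in WT by 5.38 ± 0.44 (limma adjusted p = 4.64e-06) and in Lcn2-/- by 3.45 ± 0.50 (adjusted p = 0.000598). Of 13 tested regulators, Fosl2, a partner of Jun in AP-1, was called higher in both genotypes, against the same shares of all probes. For Ets2 the differences were 0.61 in WT, which passed (limma adjusted p = 0.0233), and 0.59 in Lcn2-/-, which did not (adjusted p = 0.0638), while the other 11 were not called in either genotype.

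Marker genes of other cells moved in the same comparisons, and their part in the metalloproteinase results was not tested. The shares of all probes called higher with CCl4 were 7.34% in WT and 6.16% in Lcn2-/-. Of 12 macrophage markers, Cd68, Lyz2, Gpnmb and Trem2 were called higher with CCl4 in both genotypes, and Clec4f, a Kupffer cell marker, was called lower in WT. The summed signal of the 12, in which the brightest markers weigh most, ranged from 158864 to 482574 in WT control, from 150351 to 458870 in Lcn2-/- control, from 206326 to 336224 in WT CCl4 and from 200502 to 249697 in Lcn2-/- CCl4. Their mean log2 signal ran from 11.30 to 13.35 in WT control and from 12.80 to 13.61 in WT CCl4. In Lcn2-/- it ran from 10.91 to 12.12 in control and from 12.56 to 13.27 in CCl4. In control livers the macrophage marker Gpnmb was called lower in Lcn2-/- (limma adjusted p = 0.0129), with a mean of 7.55 in WT and 0 of 3 Lcn2-/- arrays well above background. Of 12 stellate cell markers, 8 were called higher in WT and 7 in Lcn2-/-. Acta2 and Thy1 were not called in either genotype. Tagln, at -0.79 in WT and -0.85 in Lcn2-/-, and Rgs5, at -0.30 and -0.04, were lower without being called. Lox, called in WT, was at -0.36 in Lcn2-/- and not called there. The summed signal of the 12 was at most 51151 on any control array and between 45842 and 90879 on the CCl4 arrays.

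Of 11 neutrophil markers, 6 were called higher in WT and 1, Retnlg, in Lcn2-/-, against 7.34% and 6.16% of all probes. The 2 responses were not shown to differ, since 0 of the 11 markers were called in the interaction. The summed signal of these markers ranged from 106561 to 149325 in WT control, from 115639 to 170109 in Lcn2-/- control, from 90529 to 193612 in WT CCl4 and from 88754 to 127273 in Lcn2-/- CCl4. Csf3r, at a mean log2 signal of 16.64 in WT control and not called, makes up most of that sum. The mean log2 signal of the markers ran from 8.66 to 10.63 in WT control and from 10.79 to 11.58 in WT CCl4. In Lcn2-/- it ran from 8.12 to 11.46 in control and from 10.37 to 10.89 in CCl4. Ngp and Ltf, granule genes of neutrophils, were well above background on 1 array of each control group and on all CCl4 arrays. Both were thus tested only because of their CCl4 arrays, so their calls in WT are no independent support. Lymphocyte markers went the other way, with Cd3e and Cd4 called lower in WT and Cd4 in Lcn2-/-. Of 5 cholangiocyte markers Cdh1 was called higher in both genotypes, and of 7 endothelial markers Lyve1 was called higher in both and Stab2 lower in WT.

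Which genes most resembled each member over the 16 arrays was measured as the root mean square difference between centred log2 profiles, over 24318 genes, as a description without a test, since all profiles share arrays and groups. Nearest to Mmp2 were Trem2, a receptor of lipid-handling macrophages, at 0.38, and Plat at 0.40, against an SD of 2.06 for Mmp2 itself. Mmp14 was nearest to Col4a2 and Col4a1, the basement membrane collagens, at 0.25 and 0.28 against an SD of 0.73, and Mmp23 to Col6a2 and Ccdc80, at 0.24 and 0.27 against an SD of 1.29. Mmp12 was nearest to Tinag and Il7r, at 1.11 and 1.12, against an SD of 3.33. Mmp8 was nearest to Ereg and Tmeff1, at 0.45 and 0.46, Mmp3 to Mgp and Tbx1, at 0.71 and 0.73, Mmp9 to Ptpro and Nfatc2, at 0.36 and 0.36, and Mmp13 to Zfp677 and Ccl3, at 0.34 and 0.36. For Mmp15, with an SD of 0.14, the nearest gene was Letmd1 at 0.08, and for Mmp19, with an SD of 0.47, it was Lin28 at 0.15.

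Within the family itself, the smallest distance was 0.49, between Mmp15 and Mmp19, the members that varied least. It exceeded the SD of either, 0.14 and 0.47, so this distance is no sign of a shared pattern. Mmp13 and Mmp14 lay 0.65 apart, Mmp9 and Mmp13 0.70 apart and Mmp2 and Mmp23 0.84 apart. Mmp12 was at least 1.47 from every other member, its nearest being Mmp2.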

How the data were processed

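Mouse liver RNA was hybridized to 16 1-colour Agilent arrays. The deposited scanner files, written by Agilent Feature Extraction 10.7.3.1, hold spot intensity after background subtraction, while a second, processed table from the authors gives log2 values per probe and served as an alternative. Intensities were set to the log2 scale and quantile normalized over the 16 arrays, spots marked as outliers were dropped and spots of a probe were averaged. Quantile normalization forces equal distributions, so differences are relative to the bulk of probes.

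Of 55560 usable probes (121 dropped), the 33014 that passed the background limit on 3 or more arrays were fitted in 1 model over 4 groups with limma 3.58.1 in R 4.3.3. Benjamini-Hochberg adjustment ran over all probes tested, and a probe was called at an adjusted p under 0.05. The fit was tested on simulated data. "At least" folds set the brighter group's mean against the lowest signal well above background on the dim arrays. Exact permutation tests were two-sided, and the smallest p they allow is 0.00794 for 4 against 5 arrays and 0.0286 for 3 against 4. The number of arrays limits the precision.

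Every member probe is named. From each pathway list, up to 4 genes with the largest mean response among those called were named, with Timp1 and Lcn2, and for each member the 2 nearest profiles. Mmp24, Vcan, Fn1 and the marker genes were named after their values were seen. Members and lists were chosen with earlier results of these data known. Same-numbered control arrays of the 2 genotypes deviated together (r = 0.2008, 0.3753 and 0.5162). They also shared a column of slide 1, so number and position cannot be told apart. For same-numbered arrays of the other groups r ran from -0.2481 to 0.2686. Unlike-numbered arrays were not compared, and the labels give no pairing. Alternatives covered background correction, scaling, detection filter, slide, row, array weights, blocks and each array left out.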

Additional observations from a re-analysis of the deposited data

Results flagged for a closer look

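In 3 of 33 groups of 4 or 5 values, 1 array stood apart from the others by more than Dixon's 95% critical value for the gap to the nearest array divided by the group's range, and chance alone gives about 1 in 20. Mmp9 on WT control replicate 3 measured 6.18 against 3.23 on the next array, a share of 0.951. All 10 Mmp9 spots of that array were well above background. Mmp12 at base 3518 on WT control replicate 2 measured 6.63 against 3.06, a share of 0.988. Mmp14 on WT CCl4 replicate 5 was the lowest of its group at 8.35 against 8.98, a share of 0.745, and that array was the lowest of its group for 6 of the 11 probes. The causes were not tested.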

How the results depend on the processing

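Of the 11 probes, 8 were called in the WT response. The count was 3 with slide as a block, 2 on slide 1 alone (chosen after seeing the data) and 5 with the replicate block, where Mmp2, Mmp8, Mmp12 at base 735, Mmp14 and Mmp23 were called, although WT control and WT CCl4 arrays share only a number. It ranged from 5 to 8 with 1 array left out. The 6 calls in Lcn2-/- fell to 2 with slide as a block and ranged from 5 to 7 with 1 array left out. For the genotypes under CCl4 and the interaction the count was 0 in every setting run. For the control genotypes it was 0 in all but array weights, where Mmp13 was called (1 probe, adjusted p = 0.0102). The replicate block, which matches these arrays by number, changed no call there. The Mmp13 response in WT was reversed with slide as a block (-0.0628, adjusted p = 0.949) and on slide 1 alone (-0.0628, adjusted p = 0.954), where WT CCl4 replicate 1 stands for CCl4. Scaling to the 75th percentile moved the median of all probes to -0.17 in WT, with 31.0% of calls higher in place of 49.0%, and to -0.15 in Lcn2-/-, with 36.7% in place of 55.5%, and 6 member probes were called in WT. Of the single-probe values, 839 with 1 array left out and 735 in the other settings kept their side of the threshold, while 39 and 30 lost it, and 2 and 5 gained it. The 2 reversed Mmp13 values, not among these, lost it too. Probes near background, Mmp3, Mmp8, Mmp9 and Mmp12 at base 3518, had the widest intervals in the interaction along with Mmp12 at base 735. Treatment and slide can be separated through 1 array alone, and row and genotype nearly coincide.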
